A study of Mus musculus with 8 samples.

Results

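Ephrin-B ligands and the Eph receptors that bind them were followed in cumulus oocyte complexes of the mouse, in which cumulus granulosa cells enclose the oocyte. The family has 9 listed members, the ligand genes Efnb1, Efnb2 and Efnb3 and the receptor genes Ephb1, Ephb2, Ephb3, Ephb4, Ephb6 and Epha4, and 8 of them had a named probe set among the 19938 genes that could be read. The expression of Ephb2 was not analysed here. The family was chosen from the difference that Efnb2 shows between the genotypes compared below, so the values of Efnb2 in that comparison are a description and carry no test, while the other members came in as its ligand and receptor relatives. Where a gene had several probe sets, the one used was selected on its mean signal over all arrays.

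Both groups carried lacZ inserted into Pgr, the gene of the progesterone receptor, which disrupts both of its isoforms. PRKO mice were homozygous for it, and the PR+/- controls were heterozygous and keep 1 intact copy, so neither group is wild type. Mice were 21 to 23 days old and pre-pubertal, received 5 IU of equine chorionic gonadotropin to grow follicles and 5 IU of human chorionic gonadotropin (hCG) 44 to 47 h later to start ovulation, and were sampled 8 h after hCG. Each array holds pooled complexes of 3 animals, with 4 arrays and 12 animals per genotype, and RNA was read on Affymetrix whole-transcript arrays. All values below are log2 signals, so a difference of 1 is a 2-fold change.

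Ephrin-B ligands are membrane-spanning proteins that bind Eph receptor tyrosine kinases on a neighbouring cell. Binding starts forward signalling in the cell with the receptor and reverse signalling through the short tail of the ligand, and both change adhesion and the actin skeleton. Ephrin-B2 and its receptor EphB4 are best known for setting arteries apart from veins. The cumulus cells lose contact with each other and expand during the hours sampled here.

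The 250 bases before the RefSeq transcription start are shown for Efnb2, the member whose signal differed most when the receptor, a transcription factor, was disrupted, and for Efnb1, a ligand gene whose PRKO arrays lay above its PR+/- arrays. They are from assembly GRCm38.p6, at chr8:8661243-8661492 on the minus strand for Efnb2 and chrX:99135811-99136060 on the plus strand for Efnb1, and read 5′ to 3′ along the gene. Capitals mark matches on either strand to 5 motifs: the half-site TGTTCT shared by progesterone and glucocorticoid receptors, the GC box GGGCGG, the AP-1 site TGANTCA, the cyclic AMP response element TGACGTCA and the RBPJ core TGGGAA of Notch target genes.
Efnb2: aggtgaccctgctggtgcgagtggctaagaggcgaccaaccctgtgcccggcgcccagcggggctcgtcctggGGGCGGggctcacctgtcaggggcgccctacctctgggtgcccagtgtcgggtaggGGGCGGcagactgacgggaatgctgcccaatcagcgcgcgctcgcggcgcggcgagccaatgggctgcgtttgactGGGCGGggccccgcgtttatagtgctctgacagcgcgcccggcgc
Efnb1: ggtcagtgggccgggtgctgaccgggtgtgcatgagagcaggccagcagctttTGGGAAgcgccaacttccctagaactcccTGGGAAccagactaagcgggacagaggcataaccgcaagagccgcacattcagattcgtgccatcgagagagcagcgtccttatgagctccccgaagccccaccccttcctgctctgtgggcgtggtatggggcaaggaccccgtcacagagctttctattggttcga

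The capitals in Efnb2 are 3 GC boxes, starting at -177, -121 and -45 from the start, and those in Efnb1 are 2 RBPJ cores, at -197 and -168. No receptor half-site, AP-1 site or cyclic AMP element was among these letters in either gene, nor in the windows of the other 6 members in the RefSeq table, which has no window for Efnb3. Of all 32851 windows of this length, 32.7% held the GC box, 21.6% the RBPJ core, 16.1% the half-site, 6.75% the AP-1 site and 1.55% the cyclic AMP element. The GC box was not particular to Efnb2: the windows of Ephb6 held 5, Ephb4 4, Ephb3 2 and Epha4 1, and Epha4 also held 1 RBPJ core. The Efnb2 window was 72.0% G and C and that of Ephb6 76.8%, against a median of 52.4% over all windows. A match is a description of these letters and not a bound site, and sequence farther from the start was not examined.

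The arrays resembled each other closely: median signals lay between 5.35 and 5.46, and arrays of 1 genotype correlated at 0.988 to 0.990 over probe sets, those of different genotypes at 0.981 to 0.988. Pgr was at 6.78 ± 0.57 in PR+/- and 5.69 ± 0.40 in PRKO (mean ± SD, n = 4 arrays each), a difference of -1.09 ± 0.26 (SE, limma adjusted p = 0.0452), and the genotypes overlapped. Where its probes lie relative to the insertion is not known here. With 4 arrays a group, precision is limited by their number. Whole complexes were read, so fewer cells of a type and less RNA per cell cannot be told apart.

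Efnb2 was the ligand that separated the genotypes by a wide margin. Its signals in PR+/- replicates 1 to 4 were 8.54, 8.36, 8.52 and 7.67, and in PRKO replicates 1 to 4 they were 6.50, 6.25, 6.27 and 6.49. The lowest PR+/- array lay 1.17 above the highest PRKO array. The mean went from 8.27 ± 0.41 to 6.38 ± 0.14 (SD, n = 4), a difference of -1.89 ± 0.17 (SE), so that 26.9% of the PR+/- signal was left, 3.72-fold lower. PR+/- arrays ranged over 0.87 and PRKO arrays over 0.26. PR+/- replicate 4 was the low control array, and without it the difference was -2.09. On the same arrays, PR+/- replicates 1 to 4, Pgr was at 6.09, 7.34, 6.54 and 7.15, with replicate 4 second highest. Among the controls, replicate 4 had the highest mean of the oocyte markers (6.65) and of the cumulus and granulosa markers (9.35) described below. What made Efnb2 low on that array was not tested.

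Efnb1, the ephrin-B1 gene on the X chromosome, leaned the other way by a small amount. Its signals were 7.27, 6.79, 7.03 and 7.12 in PR+/- replicates 1 to 4 and 7.73, 7.42, 7.43 and 7.29 in PRKO replicates 1 to 4. All PRKO arrays lay above all PR+/- arrays, with a gap of 0.029 between the nearest arrays of the 2 groups. The difference of 0.42 ± 0.12 (SE), a ratio of 1.34, did not pass in limma (adjusted p = 0.0955). It passed with replicate numbers as a block (limma adjusted p = 0.0407), but the labels do not say whether those numbers pair the arrays.

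Efnb3, which encodes ephrin-B3, had signals of 5.43, 5.35, 5.63 and 5.63 in PR+/- replicates 1 to 4 and 5.63, 5.83, 5.83 and 5.92 in PRKO replicates 1 to 4. The 2 groups touched without overlapping. The difference of 0.29 ± 0.09 (SE) did not pass in limma (adjusted p = 0.141), and 5 of the 8 values lay below the median of their array.

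**Figure D1:**
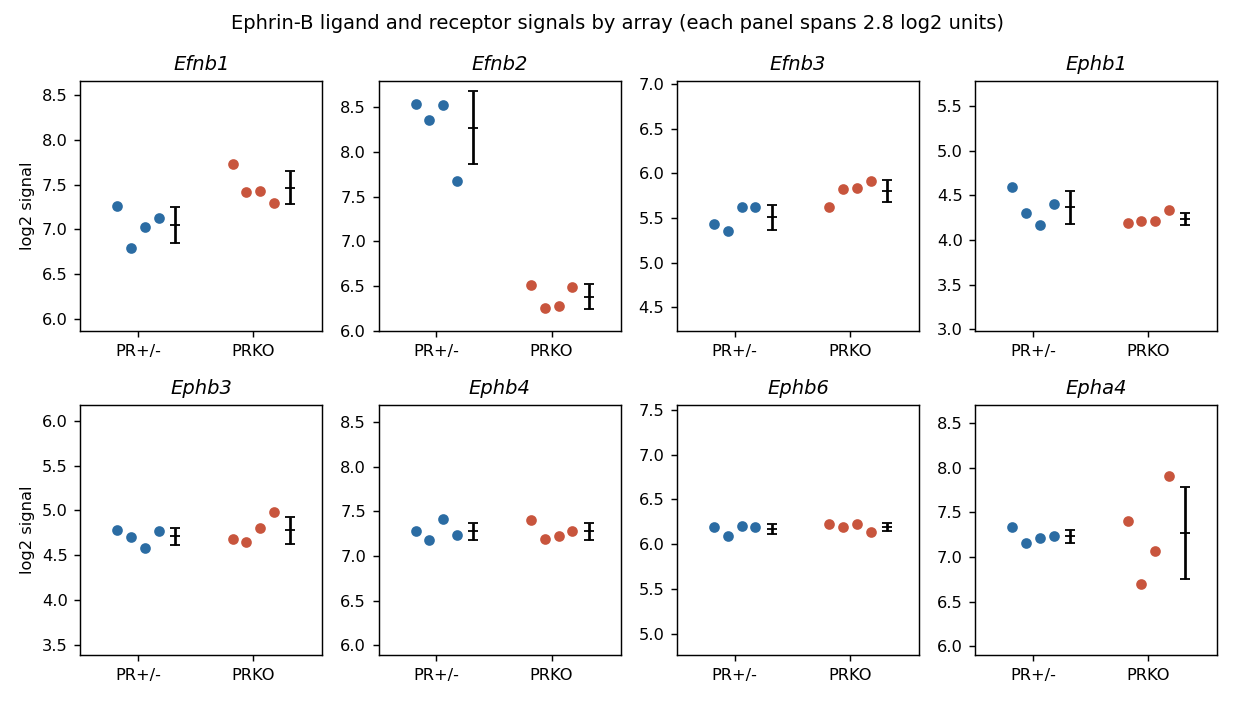
Log2 signal (vertical axis) of the 8 measured members on each PR+/- array (blue) and PRKO array (red), in replicate order, with the mean and SD of the 4 arrays of a group in black. Every panel spans the same number of log2 units; Efnb2 has a gap of 1.17 between the groups, Efnb1 one of 0.029, and the receptors overlap.

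None of the 5 measured receptor genes passed the test. By an unadjusted p under 0.05, 0 of 5 passed as well, beside 16% of all genes, and the genotypes overlapped for each of them. Ephb4, which encodes a receptor of ephrin-B2, had signals of 7.27, 7.18, 7.41 and 7.24 in PR+/- replicates 1 to 4 and 7.41, 7.19, 7.23 and 7.28 in PRKO replicates 1 to 4. High and low arrays were mixed between the genotypes. Its difference was 0.0033 with 95% limits of -0.18 to 0.18 (limma adjusted p = 0.991), so that a change to between 0.884 and 1.14 times the PR+/- signal lies within the limits.

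Ephb6 encodes a receptor whose kinase domain is inactive. Its signals were 6.19, 6.09, 6.20 and 6.20 in PR+/- replicates 1 to 4 and 6.23, 6.20, 6.22 and 6.13 in PRKO replicates 1 to 4, the narrowest ranges of any measured member in both genotypes (0.11 and 0.09). The difference was 0.03 with 95% limits of -0.13 to 0.18 (limma adjusted p = 0.908). Ephb3, a kinase-active receptor of ephrin-B ligands, had signals of 4.58 to 4.78 in PR+/- and 4.64 to 4.99 in PRKO, with a difference of 0.07 and limits of -0.14 to 0.27 (limma adjusted p = 0.787). Its signal was below the array median on all 8 arrays.

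For Ephb1, another receptor of ephrin-B ligands, the probe set used was below the lower quartile of the array (4.21 to 4.31) on 4 of 8 arrays, with signals of 4.17 to 4.59 in PR+/- and 4.19 to 4.33 in PRKO and a difference of -0.13 ± 0.10 (SE, limma adjusted p = 0.579). Its other probe set differed by 0.18 ± 0.11 (limma adjusted p = 0.473), so the 2 probe sets of Ephb1 disagreed in sign and neither passed. With the background of the arrays unknown, a difference at such signals may be understated.

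Epha4, an A-class receptor that also binds ephrin-B ligands, had close means in both genotypes, 7.23 ± 0.07 in PR+/- and 7.27 ± 0.52 in PRKO (SD, n = 4), but not the same spread. Its signals were 7.33, 7.16, 7.22 and 7.23 in PR+/- replicates 1 to 4 and 7.40, 6.70, 7.07 and 7.91 in PRKO replicates 1 to 4. PR+/- arrays spanned 0.17, while PRKO arrays spanned 1.22, a 2.32-fold difference between the highest and the lowest array. The mean difference was 0.04 with 95% limits of -0.39 to 0.46 (limma adjusted p = 0.955), and the difference in spread was not tested. The mean signal of 14 oocyte markers had the same order over the PRKO arrays, with 6.22, 5.88, 6.02 and 6.44 in replicates 1 to 4. In PR+/-, where Epha4 was nearly level, that mean spanned 5.84 to 6.65. The cumulus markers Ptgs2 (10.52 to 11.62 in PRKO) and Tnfaip6 (10.78 to 11.68), picked after their values were seen, had that order too. The mean of the cumulus and granulosa markers did not (8.90, 8.85, 8.93 and 9.28). In PR+/-, Ptgs2 spanned 10.37 to 11.35 and Tnfaip6 10.39 to 11.38, beside the nearly level Epha4. The part of either cell type in the spread of Epha4 was not tested.

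Of the 7 measured members other than Efnb2, 0 passed at an adjusted p under 0.05 in limma, and 2 (Efnb1 and Efnb3) had an unadjusted p under 0.05, as did 16% of all genes. Over all 19938 genes, 2.92% passed, 1.43% higher and 1.48% lower in PRKO, which gives 286 higher and 296 lower genes, or 173 and 303 when the arrays were first quantile normalized, and 166 and 303 when each was centred on its median. The genotypes did not overlap for Efnb1 and Efnb3 among those 7 members, and for 10.2% of all genes. Efnb1 was the 1 member that passed at an adjusted p under 0.1.

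**Figure D2:**
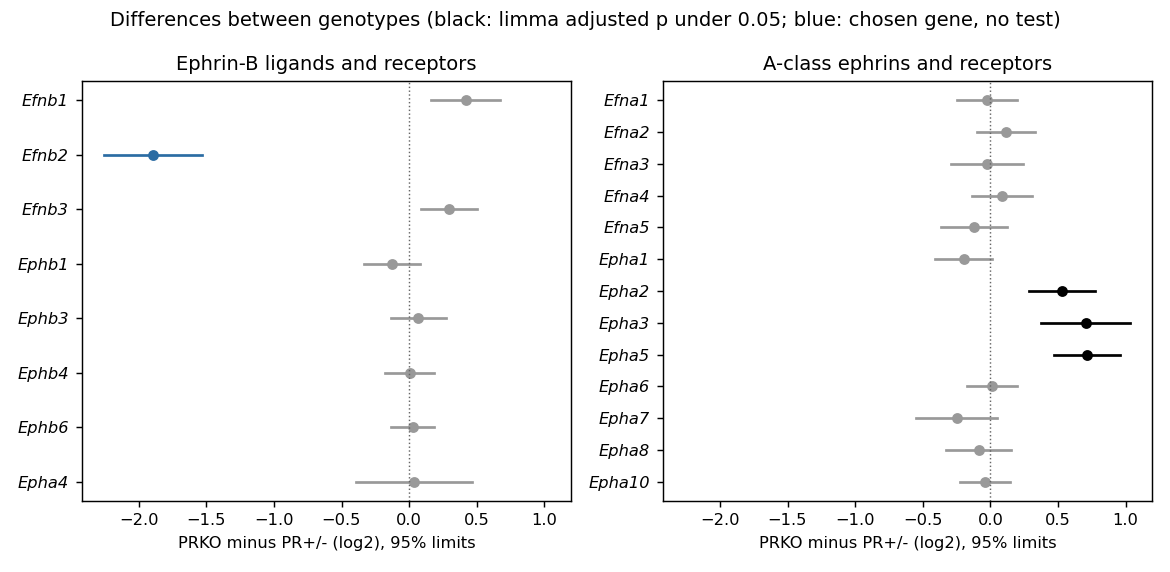
Difference of PRKO minus PR+/- in log2 units (horizontal axis) with 95% limits, for the 8 measured ephrin-B members with Epha4 (left) and for the 13 other A-class ephrins and receptors (right). Black marks genes past a limma adjusted p of 0.05, grey the others and blue Efnb2, which was chosen for its difference; Epha2, Epha3 and Epha5 lie at 0.53, 0.70 and 0.71.

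The A-class branch of the family, in which lipid-anchored ephrin-A ligands bind EphA receptors, had 13 listed genes, all measured, and 3 of them rose in PRKO complexes, 0 fell and 10 did not pass, beside 1.43% of all genes called higher. All 3 encode receptors, of 8 receptors and 5 ligands listed, and receptors were not tested against ligands. Epha4, also an A-class receptor, was counted with the ephrin-B members and not in this list. The median difference of the list was -0.02, beside 0.0043 for all genes. This list, like the others used here, was drawn up with earlier results of these arrays known.

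Epha5 had signals of 6.04, 6.18, 6.27 and 6.24 in PR+/- replicates 1 to 4 and 7.09, 6.57, 6.88 and 7.04 in PRKO replicates 1 to 4. Every PRKO array lay above every PR+/- array. It rose by 0.71 ± 0.11 (SE, limma adjusted p = 0.00531), a ratio of 1.64.

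Epha3 had signals of 4.29, 4.86, 4.75 and 5.20 in PR+/- replicates 1 to 4 and 5.49, 5.52, 5.36 and 5.54 in PRKO replicates 1 to 4, and rose by 0.70 ± 0.15 (SE, limma adjusted p = 0.0307). The groups did not overlap, and the PR+/- arrays were the more scattered. The Epha3 signal was below the array median on all 8 arrays. Epha2 had signals of 5.74, 5.85, 5.63 and 5.76 in PR+/- replicates 1 to 4 and 6.49, 6.09, 6.05 and 6.48 in PRKO replicates 1 to 4, and rose by 0.53 ± 0.11 (SE, limma adjusted p = 0.0277). Here too all PRKO arrays were the higher ones.

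The calls of Epha3 and Epha2 were fragile. The Epha3 call ended without any 1 array other than PR+/- replicate 1 or 4 (limma adjusted p 0.0596 to 0.0913), and the Epha2 call without PR+/- replicate 1 or 3 or PRKO replicate 1 or 4 (0.0619 to 0.0913), while Epha5 passed without any 1 array. Adjusted for the theca and stroma marker mean, Epha3 and Epha2 did not pass (limma adjusted p 0.0633 and 0.0552) at differences of 0.65 and 0.48. Epha2 did not pass either after quantile normalization (limma adjusted p = 0.0593) or centring (0.0594), and with all probe sets in the adjustment neither Epha2 (0.0947) nor Epha3 (0.105) passed. Of the A-class genes that did not pass, Epha7 (-0.25), Epha1 (-0.20) and the ligand gene Efna5 (-0.12) had the largest differences.

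Of 34 measured forward signalling genes, which encode proteins that act downstream of the receptors inside the cell, 0 passed in limma and 7 had an unadjusted p under 0.05 (16% of all genes did), with a median difference of 0.04. Closest to the threshold were Inppl1, a lipid phosphatase that binds the EphA2 tail (0.32 ± 0.08, SE, limma adjusted p = 0.0516), Chn2, a chimaerin that turns off Rac (-0.34 ± 0.08, 0.0530), and Rras, a small GTPase that EphB receptors control (0.39 ± 0.11, 0.0843). For Rras and Inppl1 all PRKO arrays lay above the PR+/- arrays, and for Chn2 all lay below. Chn2 passed in limma after quantile normalization (adjusted p = 0.0340), and Inppl1 with an intensity trend and robust moderation (adjusted p = 0.0429). Chn2 and Inppl1 also passed in limma when probe sets were averaged by gene (adjusted p 0.0477 and 0.0461). In the fit limited to the brighter part of the probe sets both passed as well (limma adjusted p 0.0316 and 0.0299).

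Of 23 measured reverse signalling genes, which encode the adaptors and kinases that meet the ephrin-B tail, 0 passed in limma, beside 2.92% of all genes. An unadjusted p under 0.05 was found for 0 of them, beside 16% of all genes. Their differences ran from -0.16 to 0.17, with a median of -0.0042. The largest were those of the PDZ adaptor gene Pick1 (0.17), the endocytic adaptor gene Dab2 (0.16) and the PDZ adaptor gene Grip1 (-0.16), with limma adjusted p of 0.451 to 0.680. Some genes, such as Nck2, Fyn and Src, stand in both signalling lists.

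Of 15 measured genes for cleavage and dephosphorylation, which shed the ligands and receptors or end their signal, 0 passed in limma, beside 2.92% of all genes. An unadjusted p under 0.05 was found for 1 of them, beside 16% of all genes. That 1 was Ptpn1, a tyrosine phosphatase (0.19 ± 0.09, SE, limma adjusted p = 0.306). Aph1b, a subunit of gamma-secretase, was at 0.14 and the phosphatase gene Ptpn11 at -0.09.

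In arteries Efnb2 belongs to a programme of Notch and VEGF genes. In a list drawn up around that programme, 1 of 24 measured genes rose, 0 fell and 23 did not pass, with a median difference of -0.09. Over all genes 1.43% were called higher and 1.48% lower. Of the 24 genes, 5 had an unadjusted p under 0.05, beside 16% of all genes. The list also holds Nr2f2 (-0.28), which stands among the theca and stroma markers too. Kdr, which encodes VEGF receptor 2, had signals of 5.59, 5.80, 5.63 and 5.93 in PR+/- replicates 1 to 4 and 6.12, 6.45, 6.68 and 6.89 in PRKO replicates 1 to 4. It rose by 0.80 ± 0.15 (SE, limma adjusted p = 0.0126), opposite in sign to Efnb2, with no overlap between the groups. The Kdr call ended without PR+/- replicate 3 or PRKO replicate 3 (limma adjusted p 0.0508 and 0.0512) and with all probe sets in the adjustment (0.0685). The Notch target gene Hey1 (0.69 ± 0.22, limma adjusted p = 0.128), the receptor gene Notch1 (0.38 ± 0.11, 0.101) and the Notch target gene Heyl (-0.32 ± 0.16, 0.344) did not pass. Over all 5 lists, 4 of 104 measured genes passed, or 3.85%, beside 2.92% of all genes.

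**Figure D3:**
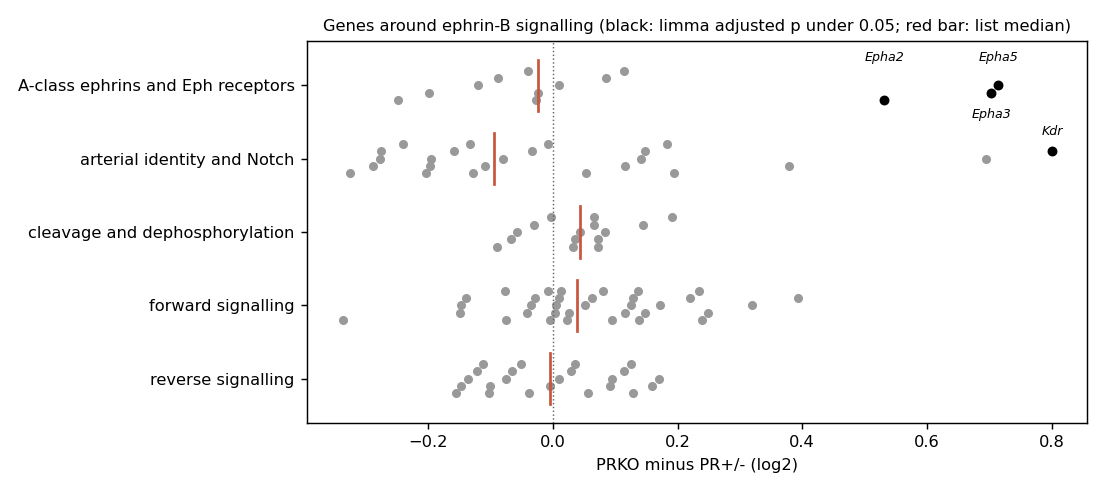
Difference of PRKO minus PR+/- in log2 units (horizontal axis) for each measured gene of the 5 lists around ephrin-B signalling, 1 point a gene, shifted vertically for legibility. Black points passed a limma adjusted p of 0.05 and are named, grey points did not, and the red bar is the list median; the reverse signalling list stays between -0.16 and 0.17.

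Markers of endothelium, where Efnb2 and Ephb4 are best known, were mostly in the lower part of the signal range. Of 12 measured endothelium markers, 10 lay below the array median (5.70 to 5.73) on all 8 arrays, among them Pecam1, Tie1 and Vwf (named after their values were seen, as defining markers), and Tek lay below the lower quartile on all 8. The brightest were Egfl7 (5.79 in PR+/- and 5.87 in PRKO) and Cdh5 (5.88 and 5.59). None of the 12 passed in limma, and 0 had an unadjusted p under 0.05, beside 16% of all genes. Kdr, which rose, and the other genes of the arterial list were counted there and are not among these 12. The mean signal of the 12 markers lay between 4.93 and 5.00 in PR+/- and between 4.90 and 5.07 in PRKO, a difference of 0.0009. With that mean as a covariate the Efnb2 difference was -1.90, but a covariate nearly equal in both genotypes can hardly move it. The part of endothelial cells in the Efnb2 difference was not tested.

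Of the markers of other cells, 10 for theca and stroma, 8 for pericytes and smooth muscle, 14 for the oocyte and 8 for leukocytes, 0 passed in limma, and 3, 3, 1 and 0 had an unadjusted p under 0.05, beside 16% of all genes. The theca and stroma mean ran from 5.85 to 6.16 in PR+/- and from 5.87 to 6.35 in PRKO. Its brightest genes were Ptch1, at a difference of -0.0007, and Nr2f2, at -0.28. Of the 10 genes, 6 were above 0 and 4 below, and the mean differed by 0.10 with the genotypes overlapping. Col3a1 (0.40) and Dcn (0.36), picked after their values were seen, were the highest. With the theca and stroma mean as a covariate the Efnb2 difference was -1.90 and that of Efnb1 was 0.38. A covariate that differs by 0.10 between genotypes can hardly move a difference as large as that of Efnb2. The part of theca and stroma cells in these differences was not tested. The pericyte and smooth muscle mean was 5.33 to 5.57 in PR+/- and 5.47 to 5.80 in PRKO, with Acta2 at 0.47 and Pdgfrb at 0.18. The leukocyte mean was 4.34 to 4.45 in PR+/- and 4.37 to 4.49 in PRKO, with Cd68 at 0.21 and Cd3e at 0.01, and 4 of the 8 genes lay below the lower quartile on all arrays. The oocyte mean overlapped between genotypes, with Padi6 at -0.11 and Bmp15 at 0.19. Of 12 cumulus and granulosa markers, Fshr, the follicle-stimulating hormone receptor gene, fell by 1.06 ± 0.15 (SE, limma adjusted p = 0.00221). Over all genes 1.48% were called lower. The other 11 markers did not pass, with the brightest, Inha and Tnfaip6, both at 0.16. An unadjusted p under 0.05 was found for 3 of the 12, beside 16% of all genes. Besides Fshr these were Amhr2 (0.45, limma adjusted p = 0.0937) and Foxl2 (-0.33, 0.175), and for Foxl2 all PRKO arrays lay below the PR+/- arrays. The mean of the 12 markers ran from 8.78 to 9.35 in PR+/- and from 8.85 to 9.28 in PRKO.

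The genes with profiles most like that of Efnb2 were found by the mean absolute difference between log2 signals over the 8 arrays, after each gene was centred on its PR+/- mean. Among 19937 other genes the nearest were Gpt2, an alanine aminotransferase of mitochondria (0.10), Adam8, a membrane metalloprotease (0.12), Tbc1d8, a gene with a Rab GTPase-activating domain (0.13), Rnf125, a ubiquitin ligase (0.14), and Slco2a1, the prostaglandin transporter (0.16). Their differences between genotypes were -1.89, -1.79, -1.95, -1.78 and -1.76. In each of these 5 genes, as in Efnb2, PR+/- replicate 4 was the lowest control array. For Adam8 the 4 PR+/- signals were 7.87, 7.66, 7.73 and 7.03 and the 4 PRKO signals 5.93, 5.70, 5.90 and 5.59. These genes were chosen by likeness to Efnb2 over all 8 arrays. The shared difference and the shared low control array are therefore part of the choice and are given without a test.

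**Figure D4:**
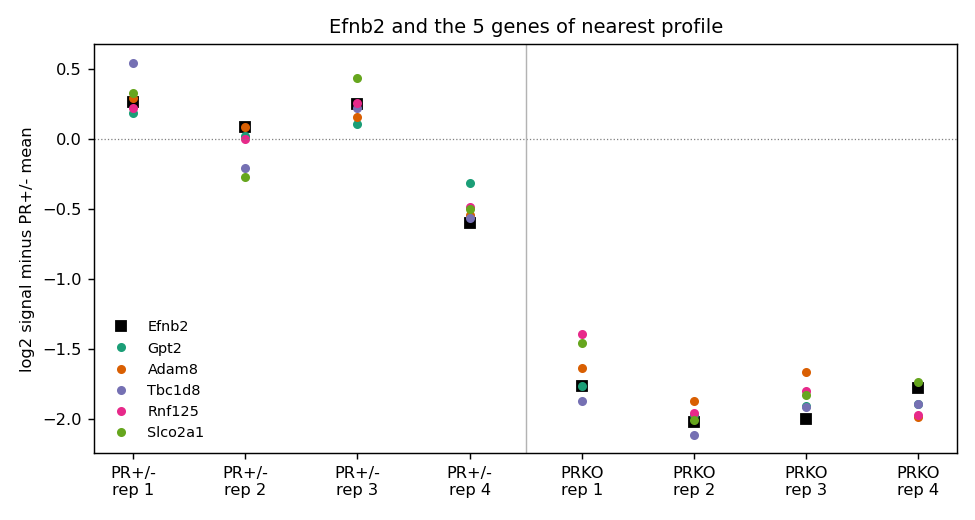
Log2 signal minus the PR+/- mean of the gene (vertical axis) on each of the 8 arrays (horizontal axis) for Efnb2 (black squares) and the 5 genes of nearest profile (coloured points). All 6 genes are lowest among controls in PR+/- replicate 4, and in each of them all PRKO arrays lie below all PR+/- arrays. Both traits are favoured by the choice of genes for likeness to Efnb2.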

How the data were processed

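The authors deposited a log2 signal for each probe set on each array, made with Partek, per the submitters' processing notes; how background was corrected and arrays were normalized is not stated in those notes as given here. Base 2 was inferred from the range of 1.19 to 14.08, since a larger base would exceed the 65535 of a 16-bit scanner.

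Of 35556 probe sets, the 21789 with exactly 1 gene symbol in the platform annotation were tested without a filter on signal; 1621 had several symbols and 12146 none. Entrez identifiers of 21698 matched RefSeq (GRCm38.p6). A gene was its probe set of highest mean over the 8 arrays.

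PRKO minus PR+/- was fitted with limma 3.58.1 (lmFit, eBayes) in R 4.3.3, two-sided, with p adjusted by Benjamini-Hochberg over all tested probe sets and 0.05 as the threshold. The fit was tested on simulated data. Samples were grouped by their titles. Promoter motifs were counted in Python 3.11.15 with pandas 2.3.3, and plots made with matplotlib 3.10.9.

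The members, gene lists and tests were chosen with earlier results of these data known. Named genes were the members, from each signalling list the genes past the threshold and the 3 next by size, the 5 nearest profiles, and from each marker list the 2 brightest and any past the threshold. Alternatives are given in the closing section.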

Additional observations from a re-analysis of the deposited data

Results flagged for a closer look

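Ephb6 in PR+/- replicate 2, at 6.09, lay apart from the other 3 PR+/- arrays (6.19 to 6.20): the gap was 0.870 of the group's range, above Dixon's 95% critical value for 4 arrays. It was the 1 flag among 16 groups examined (8 members in 2 genotypes), where chance gives about 1 in 20. The low PR+/- array of Efnb2, replicate 4, had a gap of 0.794 of its range and lay within the limit.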

How the results depend on the processing

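The Efnb2 difference ran from -1.94 to -1.89 over the alternatives that kept all arrays and from -2.09 to -1.81 without 1 array. Whether replicate numbers pair the arrays is not stated in the labels and was not settled by the values. Same-numbered deviations correlated at 0.121, 0.080, 0.145 and 0.153, all positive, but PR+/- replicate 2 correlated best with PRKO replicate 4 (0.217). The replicate block left Efnb2 at -1.89. Of the other 7 members, 1 passed with the block (Efnb1, limma adjusted p = 0.0407), 1 at an adjusted p under 0.1 (Efnb1 again), and 0 under every other alternative. Efnb1 adjusted p ran from 0.0407 to 0.213. The count of 4 higher genes in the signalling lists was 1 when probe sets without a single symbol were tested too, 2 when adjusted for theca and stroma markers, 3 after quantile normalization or centring (Epha2 lost), 5 when adjusted for endothelium markers (Notch1 gained, limma adjusted p = 0.0399), 5 with an intensity trend or averaged probe sets (Inppl1 gained), 6 at an adjusted p under 0.1, and 1 to 4 without 1 array. The count of lower genes, 0, was 1 at an adjusted p under 0.1, with probe sets averaged by gene, in the fit limited to the brighter part of the probe sets, and after quantile normalization (Chn2 each time), and 0 to 1 without 1 array (Nr2f2, without PRKO replicate 1). Differences near 0 changed sign without a call: Epha4 to -0.030 (array weights), -0.017 (quantile normalization) and -0.073 (theca and stroma markers), Ephb1 to 0.026 (mean of its probe sets), Ephb4 to -0.0079 (array weights), -0.024 (centring), -0.039 (quantile normalization) and -0.041 (theca and stroma markers), and Ephb6 to -0.0019 (centring) and -0.020 (quantile normalization). Without 1 array Epha4 ran from -0.18 to 0.23, Ephb3 from -0.0023 to 0.11, Ephb4 from -0.040 to 0.049 and Ephb6 from -0.00033 to 0.046. Over all genes, 286 were higher in PRKO, but 63 when all probe sets were tested, 166 after centring, 173 after quantile normalization and 502 at an adjusted p under 0.1, and 296 were lower, but 143 when all probe sets were tested and 430 at an adjusted p under 0.1; without 1 array the counts were 115 to 219 and 183 to 327. The causes of these shifts were not tested. Efnb3, Ephb1, Ephb3 and Epha3 had no value in the fit limited to brighter probe sets. In that fit Inppl1 passed (limma adjusted p = 0.0299), and the count of higher genes in the signalling lists was again 4.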
